A study of Mus musculus with 12 samples.

Results

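The comparison of pregnenolone 16α-carbonitrile (PCN) with vehicle on a high-fat diet rests on 6 of the 12 duodenum libraries of the study, 3 labelled HFD PCN (numbers 5, 11 and 27) and 3 labelled HFD Vehicle (numbers 23, 50 and 55), chosen by those labels. The mice were of the C57BL/6N strain and entered the diet when 6 weeks old. All 6 had the high-fat diet (HFD) for 18 weeks. The treated group was injected intraperitoneally with 50 mg/kg PCN, daily on 4 days. Controls had 30% DMSO in corn oil. Of the remaining libraries, the 3 of untreated HFD mice served as a second set of controls where HFD is named. The 3 of mice on chow entered only an alternative fit of all 12 libraries. The comparison asks what PCN changes in the gut of mice made obese by diet.

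PCN is a steroid that binds the rodent pregnane X receptor (PXR, gene Nr1i2), a nuclear receptor that senses drugs, bile acids and other foreign or toxic small molecules. With its partner, the retinoid X receptor (Rxra), the bound receptor sits on pairs of short half-sites near its target genes and raises their transcription. The targets are known above all in liver and small intestine and encode the oxidising enzymes, the conjugating enzymes and the efflux pumps that make such molecules soluble and carry them out. The related receptor CAR (Nr1i3) shares many of these targets.

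The 6 libraries held 4676718 (Vehicle 55) to 20684369 (PCN 5) counts. The labels call the tissue duodenum, while the extraction protocol speaks of liver. The brush border genes Vil1 and Alpi stood at 912 to 2295 and 677 to 3955 CPM (counts scaled to 1000000 per library, here over the library total), and the hepatocyte product Alb had 2 to 23 counts per library. Libraries Vehicle 23 and Vehicle 50 stood apart: the chaperone Hsp90aa1 was at 1427 and 1453 CPM in them, at 120 CPM in Vehicle 55 and at 118 to 217 CPM with PCN. Mitochondrial ribosomal RNA made up 33.6% of the counts of Vehicle 23 and 8.69% to 17.4% of the others. Vehicle 55 correlated with the PCN libraries at 0.966 to 0.977 (Pearson's r of log2 CPM across genes), and with Vehicle 23 and 50 at 0.901 and 0.942. Nothing beyond its own number says that a library came from an animal of its own, so p-values may measure only the spread between these samples.

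After PCN, 8 of 16110 genes tested rose and 2 fell by edgeR's quasi-likelihood test with Benjamini-Hochberg adjustment, which is 0.0497% and 0.0124% of genes, or 0.0621% in either direction. Of the 8, 7 encode enzymes of drug and ester metabolism: the carboxylesterases Ces2a and Ces2b, the cytochrome P450 enzymes Cyp2c29, Cyp2c55 and Cyp2c66, the epoxide hydrolase Ephx1 and the glutathione transferase Gstm1. The eighth is an immunoglobulin segment, Igkv8-21. The genes that fell were Lars2 and Gm15564. Called, below, means by edgeR unless DESeq2 is named. DESeq2 called 107 higher and 232 lower of 17589 genes, 0.608% and 1.32%. At an unadjusted p under 0.05 there were 1040 higher (6.46%) and 1847 lower (11.5%). All 3 PCN libraries lay above all 3 vehicle libraries for 1586 genes (9.84%) and below them for 1527 (9.48%). These shares of all genes are the background for the counts of every list below. The median log2 fold change of all genes was -0.01, with quartiles of -0.42 and 0.34, and 49% of values were positive and 51% negative. In whole tissue, fewer cells of a type and less RNA per cell cannot be told apart.

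**Figure D1:**
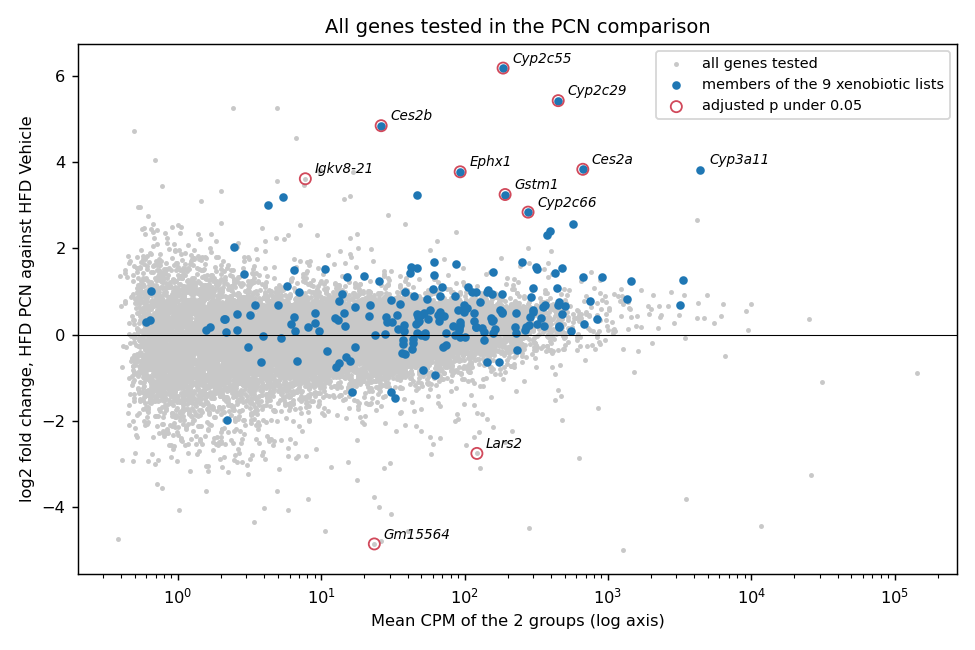
Log2 fold change of HFD PCN against HFD Vehicle (vertical axis) against mean level (horizontal axis, CPM on a log scale), 1 point per gene tested, with 16110 genes in all. Red rings mark the called genes, 8 above 0 and 2 below, blue points the drug metabolism lists, and Cyp3a11 is named without a ring.

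Carboxylesterases of the Ces2 cluster, which split drug esters and acylglycerols in the gut, held the call with the smallest adjusted p among the genes that rose. Ces2a (ENSMUSG00000055730, GRCm38 chr8:104734003-104741634, plus strand) stood at 97.5, 65.3 and 100 CPM in Vehicle 23, 50 and 55 and at 1725, 1268 and 752 CPM in PCN 5, 11 and 27. The lowest PCN library was 7.49 times the highest vehicle library. Ces2a rose 14.2-fold (log2 fold change 3.83, standard error 0.38, adjusted p = 0.0165 by edgeR's quasi-likelihood test with Benjamini-Hochberg adjustment). Ces2b (ENSMUSG00000050097, chr8:104831572-104840093, plus strand) was barely present after vehicle, at 0.888, 1.39 and 3.84 CPM, and reached 79.8, 42.3 and 28.7 CPM with PCN. It rose 28.7-fold (log2 fold change 4.84, standard error 0.58, edgeR adjusted p = 0.0432), again with no overlap and with PCN 27 the lowest of the treated libraries.

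Ces2c, their neighbour in the cluster, stood at 66.1, 119 and 170 CPM with vehicle and 511, 360 and 278 CPM with PCN, without overlap, called by DESeq2 and not by edgeR (log2 fold change 1.70, standard error 0.37, edgeR adjusted p = 0.229). Ces2h (1.41) and Ces2g (1.03) also had no overlap, at 0.957 to 2.11 and 57.7 to 123 CPM with vehicle and 3.23 to 4.87 and 148 to 239 CPM with PCN. Of 21 carboxylesterases and amidases listed, 16 passed the filter on low counts. Among these, 2 rose, none fell, 16 had a positive log2 fold change and 8 had no overlap, with a median of 0.56, and DESeq2 called 3 higher. The 5 under the filter had 0 to 16 counts per library. Ces2 genes are near copies of each other, and reads shared between them leave single values uncertain.

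The P450 enzymes of the Cyp2c cluster on chromosome 19, which oxidise drugs, retinoids and arachidonic acid, included the called genes with the highest fold changes, Cyp2c55 and Cyp2c29. Cyp2c55 (ENSMUSG00000025002, chr19:39007019-39042693, plus strand) stood at 2.87, 5.49 and 7.29 CPM with vehicle and at 592, 413 and 93.5 CPM with PCN. Cyp2c29 (ENSMUSG00000003053, chr19:39269405-39330713, plus strand) stood at 16.7, 23.8 and 20.9 CPM with vehicle and at 1459, 889 and 290 CPM with PCN. The vehicle libraries were close to one another for Cyp2c29 and ranged from 2.87 to 7.29 CPM for Cyp2c55. PCN 27 was several-fold under PCN 5 for both genes, and still 12.8 times (Cyp2c55) and 12.2 times (Cyp2c29) above the highest vehicle library. Cyp2c55 rose 72.4-fold (log2 fold change 6.18, standard error 0.74, edgeR adjusted p = 0.0432) and Cyp2c29 rose 42.9-fold (5.42, SE 0.58, edgeR adjusted p = 0.0227).

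Cyp2c66 (ENSMUSG00000067229, chr19:39113898-39187072, plus strand) had more transcript to begin with, at 50.6, 66.8 and 86.7 CPM, and stood at 660, 539 and 260 CPM with PCN. It rose 7.16-fold (log2 fold change 2.84, standard error 0.38, edgeR adjusted p = 0.0432), with PCN 5 the highest and PCN 27 the lowest treated library. Other members of the cluster had no overlap and no call by edgeR, while DESeq2 called Cyp2c65 and Cyp2c38: Cyp2c65 (log2 fold change 1.57, 82.7 to 218 CPM with vehicle and 336 to 585 CPM with PCN), Cyp2c38 (1.34, 7.93 to 9.01 and 15.2 to 25 CPM) and Cyp2c68 (0.90, 25.4 to 60.6 and 71.7 to 99.9 CPM). Cyp2c39 and Cyp2c40, of the same family, did not pass the filter, with 0 to 2 counts in each library. These genes too share sequence, so reads may be split between them.

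Cyp3a11, the main intestinal and hepatic drug oxidase of the mouse and the textbook PXR target, was not called by edgeR. It stood at 158, 500 and 1089 CPM in Vehicle 23, 50 and 55 and at 11480, 8898 and 4399 CPM in PCN 5, 11 and 27. The groups did not overlap, but the vehicle libraries differed more from one another than those of Cyp2c29 or Ces2a did. The log2 fold change was 3.83 with an SE of 0.71 (edgeR adjusted p = 0.200; DESeq2 adjusted p = 0.000268). Ces2a, at the same log2 fold change of 3.83, had an SE of 0.38 and was called. The SE was derived from the log2 fold change and the F of the same test. It therefore restates the difference in call and does not account for it. Per kilobase of exon, Cyp3a11 averaged 114 CPM with vehicle and 1622 CPM with PCN, against 37.2 and 529 for Ces2a, 6.69 and 287 for Cyp2c29, 2.62 and 183 for Cyp2c55, and 0.598 and 14.8 for Ces2b.

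**Figure D2:**
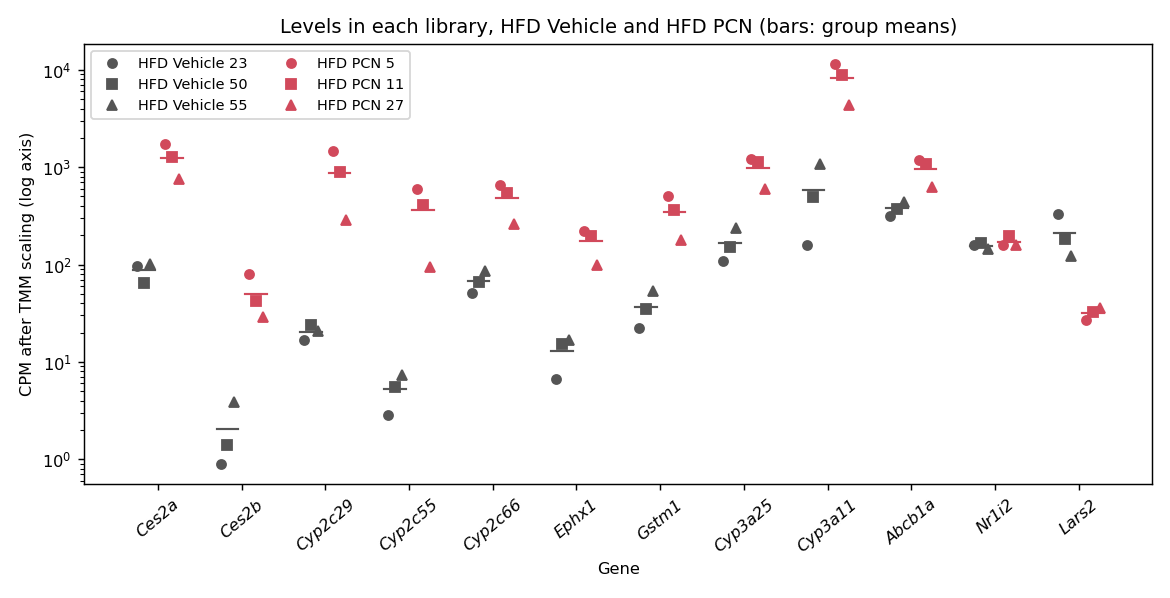
Level in each library (CPM after TMM scaling, log axis) of the genes named on the horizontal axis, with 3 vehicle (grey) and 3 PCN (red) libraries per gene as points and group means as bars. For Ces2a, Ces2b, Cyp2c29, Cyp2c55, Cyp2c66, Ephx1, Gstm1 and Cyp3a11 the PCN points lie above the vehicle points, for Nr1i2 they overlap and for Lars2 they lie below.

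Cyp3a25 came close to a call, at 110, 151 and 236 CPM with vehicle and 1206, 1133 and 593 CPM with PCN (log2 fold change 2.56, standard error 0.39, edgeR adjusted p = 0.0864). Cyp3a44 and Cyp3a59 were at 0.137 to 2.49 and 0.359 to 2.69 CPM with vehicle and at 7.57 to 12 and 4.71 to 8.74 CPM with PCN, called by DESeq2 and not by edgeR. Cyp3a13, a form typical of the gut, stood at 407, 877 and 1300 CPM with vehicle and 2476, 1857 and 1834 CPM with PCN (log2 fold change 1.26, edgeR adjusted p = 0.240). Cyp2b10, the classical CAR target, stood at 152, 232 and 312 CPM with vehicle and 778, 628 and 462 CPM with PCN (1.42, edgeR adjusted p = 0.231). In all of these the groups were separate, Vehicle 23 or Vehicle 50 was the lowest control and PCN 27 the lowest treated library, for Cyp3a13 nearly level with PCN 11. Cyp3a25, Cyp3a13 and Cyp2b10 were also called by DESeq2 (DESeq2 adjusted p = 2.65e-10, 0.0369 and 0.00157).

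The electron donors of the P450 system varied in size of difference. Cyb5a, cytochrome b5, stood at 134, 180 and 186 CPM with vehicle and 639, 493 and 296 CPM with PCN, a log2 fold change of 1.51 without overlap, called by DESeq2 and not by edgeR. Por, the P450 reductase, stood at 246, 267 and 368 CPM with vehicle and 425, 399 and 336 CPM with PCN (0.40, edgeR adjusted p = 0.388), and its groups overlapped. Alas1, the first enzyme of heme synthesis, overlapped because PCN 27 (137 CPM) lay under Vehicle 55 (147 CPM). Cpox, a later enzyme of heme synthesis, stood at 36.1, 44.1 and 46.0 CPM with vehicle and 135, 137 and 57.7 CPM with PCN without overlap (1.39, edgeR adjusted p = 0.231). It was called by DESeq2 (DESeq2 adjusted p = 0.00627).

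Of 30 PXR and CAR target oxidases and cofactors listed, 25 were in the table and 17 passed the filter. Among the 17, 3 rose, none fell, all 17 had positive values, 14 had no overlap, and the median log2 fold change was 1.52. DESeq2 called 12 of 18 higher. The 8 in the table that did not pass the filter had 0 to 8 counts in any library. A member can pass the filter on its PCN libraries alone, so these counts describe the members and test nothing. Other xenobiotic P450 enzymes had a median of 0.33 over 17 members, with 1 entirely above, 1 entirely below and none called by edgeR or DESeq2, and 2 higher and 1 lower at an unadjusted p under 0.05.

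To look at the DNA in front of these genes, RefSeq promoter windows (GRCm38.p6, 250 bases before to 50 after the annotated start) were read for 8 of 9 genes looked up, the called enzymes, Lars2 and Cyp3a11. No window was found for Ces2b. Half-sites of the kind that nuclear receptors bind, AGGTCA or AGTTCA on either strand, were found in 4 of the 9 windows, and 27.7% of 32851 windows of all genes hold at least one. The windows of Ces2a (chr8:104733753-104734052, plus strand), Cyp2c29 (chr19:39286835-39287134, plus strand) and Cyp3a11 (chr5:145879805-145880104, minus strand) are shown because they belong to genes with high levels after PCN and hold the letters, which are in capitals.

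Ces2a: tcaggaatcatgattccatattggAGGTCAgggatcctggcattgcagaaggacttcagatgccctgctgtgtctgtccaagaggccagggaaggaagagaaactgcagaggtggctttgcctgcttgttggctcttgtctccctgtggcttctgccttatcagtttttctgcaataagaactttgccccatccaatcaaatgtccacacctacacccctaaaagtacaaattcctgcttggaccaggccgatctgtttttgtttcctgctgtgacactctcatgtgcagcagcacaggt

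Cyp2c29: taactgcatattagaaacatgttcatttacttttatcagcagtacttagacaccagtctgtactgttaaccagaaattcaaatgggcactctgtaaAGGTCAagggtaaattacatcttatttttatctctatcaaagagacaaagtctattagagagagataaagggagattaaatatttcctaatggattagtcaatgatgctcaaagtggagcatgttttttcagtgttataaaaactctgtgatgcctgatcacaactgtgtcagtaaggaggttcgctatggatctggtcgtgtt

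Cyp3a11: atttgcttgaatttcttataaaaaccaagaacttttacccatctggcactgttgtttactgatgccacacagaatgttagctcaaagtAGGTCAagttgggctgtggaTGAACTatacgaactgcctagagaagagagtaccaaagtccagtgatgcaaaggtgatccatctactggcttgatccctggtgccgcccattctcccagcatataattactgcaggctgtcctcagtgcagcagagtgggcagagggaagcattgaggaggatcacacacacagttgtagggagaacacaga

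The half-site of Ces2a starts 226 bases before the RefSeq start, that of Cyp2c29 154 bases before it, and those of Cyp3a11 162 and 142 bases before it. No direct repeat with 3 or 4 bases between half-sites, and no everted repeat with 6, was in any of the 9 windows; these exact pairs stand in 0.0122%, 0.0274% and 0.00913% of all windows. The windows of Ephx1, Cyp2c55, Cyp2c66 and Lars2 hold none of the letters searched. Gstm1 had a window with a half-site starting 5 bases before its start and another window without a half-site. A match describes letters, and sites farther from the start were not searched.

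Ephx1 (ENSMUSG00000038776, chr1:180976210-181020904, minus strand), the microsomal hydrolase that opens reactive epoxides made by P450 enzymes, stood at 6.63, 15.1 and 16.7 CPM with vehicle and at 223, 198 and 98.5 CPM with PCN. The lowest PCN library was 5.90 times the highest vehicle library. Ephx1 rose 13.7-fold (log2 fold change 3.77, standard error 0.43, edgeR adjusted p = 0.0255). The carbonyl reductases Cbr3 and Cbr1, which reduce ketones and quinones, had log2 fold changes of 2.04 and 0.98, and the retinal dehydrogenase Aldh1a1 had 1.55, each without overlap. None of these 3 was called by edgeR, and DESeq2 called Cbr3 and Aldh1a1. Aldh1a1 stood at 170, 191 and 363 CPM with vehicle and 1098, 639 and 387 CPM with PCN, so that PCN 27 was only just above Vehicle 55. Of the 33 tested members of the list of epoxide hydrolases, aldehyde dehydrogenases and aldo-keto reductases, 1 rose, none fell, 25 were positive and 5 had no overlap, with a median of 0.27, and DESeq2 called 4 higher.

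Among glutathione transferases, which join glutathione to electrophiles, Gstm1 (ENSMUSG00000058135, chr3:108012255-108017973, minus strand) stood at 22.2, 34.7 and 53.3 CPM with vehicle and at 502, 360 and 178 CPM with PCN. It rose 9.5-fold (log2 fold change 3.25, standard error 0.44, edgeR adjusted p = 0.0494), the call nearest to the threshold. Gstm2 had the same fold change with a wider spread, at 4.37, 6.93 and 16.5 CPM with vehicle and 133, 76.9 and 39.0 CPM with PCN (3.24, SE 0.58, edgeR adjusted p = 0.200). Gstm3 stood at 69.5, 109 and 196 CPM with vehicle and 895, 686 and 406 CPM with PCN (2.41, edgeR adjusted p = 0.189). DESeq2 called both Gstm2 and Gstm3 (DESeq2 adjusted p = 2.31e-08 and 3.99e-07).

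The alpha class was apart as well. Gsta4, which clears lipid peroxidation aldehydes, stood at 44.8, 161 and 174 CPM with vehicle and 801, 741 and 334 CPM with PCN (log2 fold change 2.31, edgeR adjusted p = 0.231), and Gsta1 stood at 15.9 to 39.7 and 74.0 to 104 CPM (1.70, edgeR adjusted p = 0.200). DESeq2 called Gsta4 and Gsta1 (DESeq2 adjusted p = 0.000136 and 0.000292). By contrast, Gstp1 of the pi class (0.04) and Gstm5 of the mu class (-0.37) were within their spread. Gstm5 thus did not share the difference of Gstm1, Gstm2 and Gstm3. Of 22 tested members of 23, 1 rose, none fell, 21 were positive and 13 had no overlap, with a median of 0.83, and DESeq2 called 8 higher. Gstm genes lie side by side and resemble each other, so reads may be split between them.

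Glucuronidation and sulfation genes had smaller differences and no call by edgeR, with 9 of 22 higher at an unadjusted p under 0.05 and 4 of 23 called higher by DESeq2. Ugt1a1, the bilirubin glucuronosyltransferase, stood at 59.8, 68.5 and 73.8 CPM with vehicle and 179, 162 and 94.5 CPM with PCN (log2 fold change 1.11, standard error 0.26, edgeR adjusted p = 0.231). Ugt2b34, another glucuronosyltransferase, stood at 203, 550 and 792 CPM with vehicle and 1491, 1462 and 968 CPM with PCN (1.34). Ugt2b5 (1.43) and Ugt2b35 (1.06) were also without overlap. Of the 22, 20 were positive, 11 lay entirely above and 1 entirely below, with a median of 0.78. Ugt1a genes share their 3′ exons, so the values of single members are uncertain.

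Transporters did not move as a block. Abcb1a, the drug efflux pump of the brush border, stood at 318, 375 and 443 CPM with vehicle and 1185, 1071 and 622 CPM with PCN, without overlap (log2 fold change 1.34, standard error 0.31, edgeR adjusted p = 0.231; DESeq2 adjusted p = 0.00119). Abcc2, which exports conjugates, stood at 936, 1177 and 835 CPM with vehicle and 1983, 2028 and 1207 CPM with PCN (0.82), and PCN 27 was just above Vehicle 50. Abcc3 (0.50), Slc51b of the basolateral bile acid carrier (1.58) and the carnitine carrier Slc22a5 (0.83) had no overlap either. Abcc6, an efflux transporter of the same family as Abcc2, lay the other way, at 60.5, 55.4 and 26.5 CPM with vehicle and 12.8, 15.9 and 23.6 CPM with PCN (-1.46, edgeR adjusted p = 0.231). Of 24 tested members of 26, 15 were positive, 7 lay entirely above and 3 entirely below, with a median of 0.20. None was called by edgeR, 6 were higher and 3 lower at an unadjusted p under 0.05, and DESeq2 called 2 higher and 1 lower. Over all genes, 9.84% lay entirely above and 9.48% entirely below. At an unadjusted p under 0.05, 6.46% of all genes were higher and 11.5% lower.

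The receptor genes themselves were level. Nr1i2 stood at 160, 165 and 143 CPM with vehicle and 157, 194 and 159 CPM with PCN (log2 fold change 0.12, standard error 0.20, edgeR adjusted p = 0.746), with overlapping groups. Nr1i3 stood at 56.0, 51.3 and 71.2 CPM with vehicle and 67.5, 80.9 and 73.1 CPM with PCN (0.31, edgeR adjusted p = 0.404). The adipogenic receptor Pparg, low in this tissue, had no overlap, at 10.04, 14.7 and 21.3 CPM with vehicle and 41.9, 40.2 and 24.6 CPM with PCN (1.23, edgeR adjusted p = 0.231). The 25 receptors and partners had a median of 0.03, with 14 positive and none called by edgeR (2 higher and 3 lower at an unadjusted p under 0.05, 1 higher by DESeq2). Targets of the oxidant sensor NRF2 had a median of 0.22 over 21 members, none called by edgeR (6 higher and 2 lower at an unadjusted p under 0.05, 1 higher by DESeq2). Among them the malic enzyme Me1, which makes NADPH, had 1.37, and the heme oxygenase Hmox1 stood at 5.12, 4.98 and 0.384 CPM with vehicle and 0.811 to 1.06 CPM with PCN.

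Over all lists of drug and toxin metabolism together, 162 of 197 tested genes had a positive log2 fold change (49% of all genes), 68 had all PCN libraries above all vehicle libraries (34.5%, against 9.84% of all genes) and 5 had them below, with a median of 0.43. The order of libraries was much alike across the 68. PCN 5 was the highest treated library for 53 of them and PCN 27 the lowest for 53, while Vehicle 55 was the highest control for 61 and Vehicle 23 the lowest for 60. Among all 1586 genes without overlap in that direction the same libraries held those places for 53.2%, 65.5%, 70% and 76%. Over all 16110 genes, PCN 5 was the highest treated library for 32.1% and Vehicle 55 the highest control for 38.9%. Vehicle 55 and PCN 27 are the libraries with the fewest counts of their groups, and the part of depth in this order was not tested. Mature enterocyte markers had a median of 0.46, with all 16 positive, and their summed level was 13737 CPM in Vehicle 23 against 30154 to 38994 CPM in the other libraries. Their part in the drug metabolism values was not tested.

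**Figure D3:**
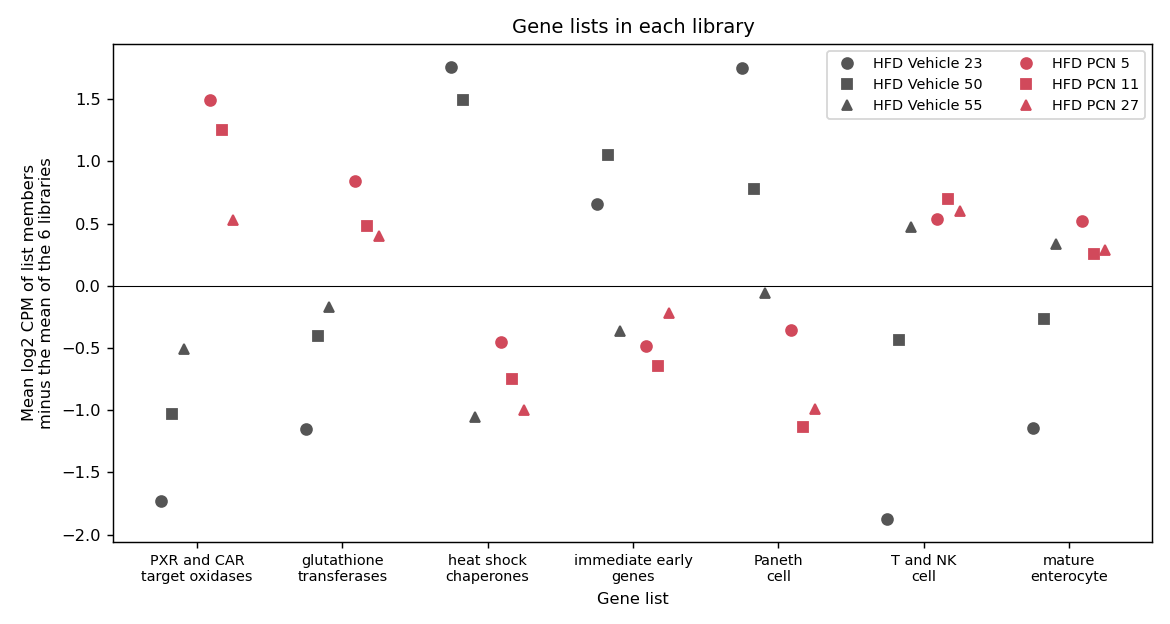
Mean log2 CPM of the tested members of each gene list (vertical axis, minus the mean of the 6 libraries), with vehicle libraries in grey and PCN libraries in red. Target oxidases and glutathione transferases separate the groups, whereas Vehicle 23 and Vehicle 50 stand high for heat shock chaperones and Vehicle 55 lies near the PCN libraries.

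Because Vehicle 23 and 50 stood apart, fold changes of the called genes were also taken against Vehicle 55 alone and against the 3 untreated HFD libraries, which stand in the other deposited table. The log2 fold change against Vehicle 55 alone was 3.62 for Ces2a, 5.37 for Cyp2c29, 5.63 for Cyp2c55, 2.47 for Cyp2c66, 3.70 for Ces2b, 3.36 for Ephx1 and 2.68 for Gstm1. Against untreated HFD the values were 4.07, 6.94, 5.76, 3.08, 2.82, 3.70 and 3.29 in the same order. For all 7 enzymes every PCN library lay above every vehicle library, so a positive value against Vehicle 55 alone was fixed in advance. Against untreated HFD, where it was not, all 7 kept their direction. Ces2b had the largest decrease among them there, from 4.84 to 2.82. With untreated HFD as controls edgeR called 5 of the 10 genes, and Ces2b, Cyp2c55, Lars2, Gm15564 and Igkv8-21 were not called. Cyp3a11 had 2.90 against Vehicle 55 and 3.95 against untreated HFD (edgeR adjusted p = 0.00214). Over the drug metabolism lists, 145 of 201 genes were positive against Vehicle 55 alone (median 0.22) and 145 of 198 against untreated HFD (median 0.34), where 22 were called higher by edgeR and none lower. The PCN libraries are the same in all 3 comparisons.

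The calls depended on which libraries entered. Without Vehicle 50 or without PCN 11 edgeR called no gene (481 and 438 genes were higher, and 1267 and 1190 lower, at an unadjusted p under 0.05), and without Vehicle 23 it called 5, where Cyp2c29, Cyp2c55, Cyp2c66, Ces2b, Gstm1 and Igkv8-21 were not among them. Without PCN 5, Cyp2c55, Cyp2c66, Gstm1, Igkv8-21 and Lars2 were not called, and without PCN 27 Lars2 was not. Without Vehicle 55 it called 3697 genes. Against Vehicle 55 alone, with 1 control library assumed to vary like the PCN libraries, 2 genes were called, Lars2 and Reg3g. Without genes of mitochondria or resembling ribosomal RNA, the calls were Ces2a, Cyp2c29, Ephx1 and Ces2b. Lars2 and Gm15564 were among the genes left out of that fit, so they could not be called in it.

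Lars2 (ENSMUSG00000035202, chr9:123366927-123462666, plus strand), the mitochondrial leucyl-tRNA synthetase, stood at 332, 183 and 121 CPM with vehicle and 26.9, 32.2 and 35.6 CPM with PCN, and fell by 2.75 on the log2 scale (SE 0.36, edgeR adjusted p = 0.0432). Gm15564, an antisense gene, stood at 64.9, 32.0 and 38.7 CPM with vehicle and 0.913, 1.08 and 2.95 CPM with PCN (-4.85, edgeR adjusted p = 0.0165). Like Lars2, Gm15564 was counted here among the genes resembling ribosomal RNA. For both genes the groups did not overlap. Lars2 holds a stretch that resembles ribosomal RNA, and the library with the highest Lars2, Vehicle 23, also had the highest share of mitochondrial ribosomal RNA. That share was 17.4% in PCN 11, where Lars2 was at 32.2 CPM, 16.7% in Vehicle 50 and 12.7% in Vehicle 55. The part of mitochondrial ribosomal RNA in the fall was not tested. Gm42418 and Gm26917, non-coding genes that resemble ribosomal RNA, also lay entirely below, at log2 fold changes of -3.81 and -3.26, called by DESeq2 and not by edgeR. Igkv8-21, the segment that rose, stood at 1.57, 1.23 and 0.384 CPM with vehicle and 15.3, 20.1 and 7.76 CPM with PCN (3.61, edgeR adjusted p = 0.0432). Igkv8-21, Gm15564, Gm42418 and Gm26917, as a receptor segment and predicted genes, lie outside the rule for named genes and were chosen after their values were seen.

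Genes outside all lists were taken at a mean of at least 50 counts, an unadjusted p under 0.01 and no overlap, without predicted genes, numbered clones, pseudogenes and immunoglobulin segments. Within these limits the highest positive values were those of Sprr2a3, a small proline-rich protein of epithelia, at 0.273, 1.59 and 6.33 CPM with vehicle and 43.4, 37.0 and 11.9 CPM with PCN (log2 fold change 3.78, edgeR adjusted p = 0.231), and Fyb2, an adaptor protein, at 1.09, 0.873 and 2.11 CPM with vehicle and 19.9, 15.2 and 5.91 CPM with PCN (3.48, edgeR adjusted p = 0.0864). Hsd17b6, a steroid dehydrogenase, stood at 12, 24.8 and 33.4 CPM with vehicle and 148, 104 and 62.4 CPM with PCN (2.18). Ankrd37 (2.17), Fam84a (1.97) and Olfr165 (1.93) followed. Each of these 6 lay entirely above; edgeR called none, and DESeq2 called all but Sprr2a3. Against untreated HFD Fyb2 had 3.31 (edgeR adjusted p = 0.0119), whereas Ankrd37 had 0.78.

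Within the same limits the lowest negative values outside the lists were those of Necab2 (-4.34), Arc (-4.01), Defa29 (-3.07), Pilrb2 (-2.89), Krt12 (-2.86) and P4ha2 (-2.81), none called by edgeR and all 6 called by DESeq2. Arc, an activity-induced gene, stood at 11.8, 8.88 and 1.73 CPM with vehicle and 0.0961, 0.541 and 0.923 CPM with PCN. Krt12 stood at 16.9, 16.1 and 1.92 CPM with vehicle and 1.30 to 1.85 CPM with PCN. In all 6 genes Vehicle 23 and 50 were the highest libraries and Vehicle 55 lay between them and the PCN libraries. It was close to the PCN libraries for Krt12 and farther above them for Arc. Krt12 had -0.24 and Arc -1.87 against Vehicle 55 alone.

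Lipid and sterol genes showed smaller differences. Of 125 genes in those lists, 99 were positive, 32 lay entirely above (25.6%) and 3 entirely below, with a median of 0.37. The edgeR test called none, 1 to 9 per list were higher and 0 or 1 lower at an unadjusted p under 0.05, and DESeq2 called 0 to 3 per list. Acot12, a cytosolic acetyl-CoA thioesterase, stood at 31.0, 38.1 and 47.8 CPM with vehicle and 107, 93.0 and 71.7 CPM with PCN (log2 fold change 1.22, standard error 0.24, edgeR adjusted p = 0.200; DESeq2 adjusted p = 0.00184). Elovl6, which lengthens palmitate, stood at 73.7, 98.9 and 190 CPM with vehicle and 435, 436 and 221 CPM with PCN (1.59). Abca1, which loads cholesterol onto high-density lipoprotein, stood at 141, 180 and 263 CPM with vehicle and 419, 407 and 374 CPM with PCN (1.04, edgeR adjusted p = 0.231). Elovl6 and Abca1 were called by DESeq2 too (DESeq2 adjusted p = 0.00427 and 0.0170).

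Of the 27 genes of cholesterol synthesis and its control, 19 were positive and 13 lay entirely above, with a median of 0.32. Sc5d (log2 fold change 0.996), Idi1 (0.98) and Hsd17b7 (0.91), enzymes of the pathway, were among the 13. Srebf1, a lipogenic regulator in the list of fatty acid synthesis, had -0.69. None of the 27 was called by edgeR or DESeq2, and 9 were higher and none lower at an unadjusted p under 0.05. Their median was 0.37 against Vehicle 55 alone and 0.80 against untreated HFD. Npc1l1, the sterol uptake protein of the brush border, stood at 214, 400 and 305 CPM with vehicle and 508, 456 and 486 CPM with PCN (0.66, edgeR adjusted p = 0.263), without overlap.

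Fatty acid oxidation genes had a median of 0.44 over 31 members, with 27 positive and 8 entirely above, and Cpt1a, which brings fatty acids into mitochondria, had 0.65 with overlapping groups. Fat uptake and chylomicron genes had a median of 0.28 over 29 members, with 25 positive but 2 entirely above. Sar1b, which moves chylomicrons out of the endoplasmic reticulum, was one of them, at 40.4, 70.2 and 99.2 CPM with vehicle and 170, 136 and 120 CPM with PCN (1.03). Fabp1 stood at 365, 751 and 1548 CPM with vehicle and 2253, 1217 and 1114 CPM with PCN, with overlap, and Cd36 at 27.9, 59.1 and 120 and at 131, 96.0 and 125 CPM. For both, Vehicle 23 was the lowest library. The summed level of mature enterocyte markers ranged from 13737 to 37067 CPM with vehicle and from 35360 to 38994 CPM with PCN, and their part in the lipid gene values was not tested. The medians against Vehicle 55 alone were 0.15 for oxidation, 0.005 for fat uptake and 0.12 for enterocyte markers.

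**Figure D4:**
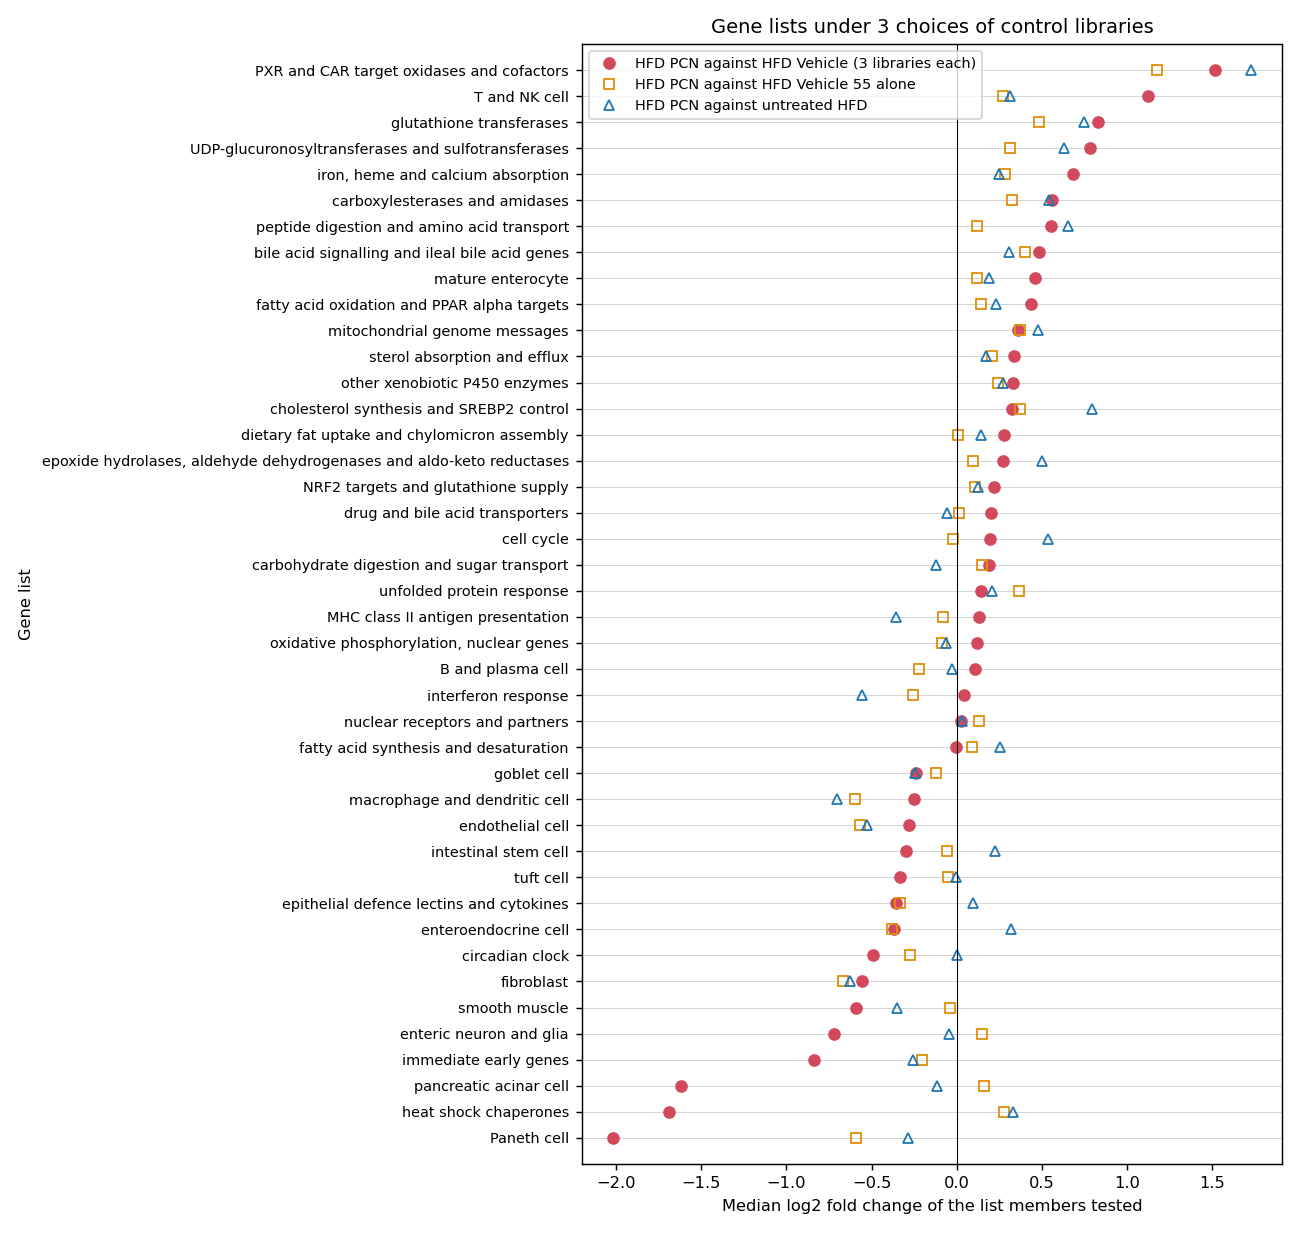
Median log2 fold change of the tested members of each gene list (horizontal axis) for HFD PCN against all 3 vehicle libraries (filled circles), against Vehicle 55 alone (squares) and against untreated HFD (triangles). The PXR and CAR target oxidases are at 1.52, 1.18 and 1.73, while heat shock chaperones are at -1.69, 0.28 and 0.33.

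Genes of peptide digestion and amino acid uptake had a median of 0.55 over 23 members, 20 of them positive and 7 entirely above. Naaladl1, an intestinal dipeptidase, stood at 57.3, 74.0 and 76.5 CPM with vehicle and 154, 120 and 135 CPM with PCN (log2 fold change 0.98, standard error 0.21, edgeR adjusted p = 0.224), and the peptide carrier Slc15a1 had 1.09, with PCN 27 and Vehicle 55 nearly level at 452 and 451 CPM. Iron, heme and calcium genes had a median of 0.68 over 21 members. The iron importer Slc11a2 stood at 83.2, 98.0 and 316 CPM with vehicle and 625, 1074 and 216 CPM with PCN (1.95, edgeR adjusted p = 0.242), so that PCN 27 lay under Vehicle 55. No gene of either list was called by edgeR, 4 and 6 were higher and 0 and 1 lower at an unadjusted p under 0.05, and DESeq2 called 1 higher in each.

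In the list of heat shock chaperones the control libraries differed from one another. Hsph1, a chaperone of the Hsp110 family, stood at 3928, 3410 and 30.7 CPM in Vehicle 23, 50 and 55 and at 89.0, 94.0 and 49.3 CPM with PCN. Dnajb1 stood at 954, 638 and 15.5 CPM with vehicle and 30.4, 18.0 and 23.5 CPM with PCN. Vehicle 55 was below the PCN libraries for both, so the groups overlapped. All 21 members were negative with a median of -1.69, none was entirely below, and none was called by edgeR (16 were lower at an unadjusted p under 0.05, and DESeq2 called 6 lower). Against Vehicle 55 alone the median was 0.28, and against untreated HFD 0.33.

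Immediate early genes, which cells switch on within minutes of a stimulus, had a median of -0.84 over 23 members, with 20 negative and 7 entirely below. Dusp1 stood at 12, 14.7 and 7.48 CPM with vehicle and 2.59, 1.96 and 3.51 CPM with PCN (log2 fold change -2.11, standard error 0.34, edgeR adjusted p = 0.130). Cyr61 stood at 87.9, 62.0 and 0.575 CPM with vehicle and 1.39 to 2.26 CPM with PCN. The genes thus differed in whether Vehicle 55 was with the other controls, as for Dusp1, or with the PCN libraries, as for Cyr61. None was called by edgeR, 10 were lower at an unadjusted p under 0.05, and DESeq2 called 7 lower. Clock genes had a median of -0.49 over 19 members and 0.004 against untreated HFD. Of the 19, 15 were negative, 8 lay entirely below and 1 entirely above. None of them was called by edgeR or DESeq2, and 7 were lower and 1 higher at an unadjusted p under 0.05. Per3 stood at 119, 102 and 57.0 CPM with vehicle and 37.0, 54.4 and 46.3 CPM with PCN (-1.02), and the hour of collection is not stated in the labels.

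Paneth cell markers, antimicrobial products of the crypt base, were on average highest in Vehicle 23, and Vehicle 55 lay nearer to the PCN libraries. Itln1, an intelectin, stood at 596, 270 and 103 CPM with vehicle and 81.3, 35.7 and 55.9 CPM with PCN (log2 fold change -2.49, standard error 0.59, edgeR adjusted p = 0.231). Lyz1, lysozyme, stood at 1181, 562 and 317 CPM with vehicle and 366, 168 and 236 CPM with PCN (-1.42), with PCN 5 above Vehicle 55. The median was -2.02 over 14 members, all negative and 8 entirely below. It was -0.59 against Vehicle 55 alone and -0.29 against untreated HFD. Summed, the list took 648 to 2955 CPM with vehicle and 316 to 663 CPM with PCN. None was called by edgeR, 12 were lower at an unadjusted p under 0.05, and DESeq2 called 7 lower. Reg3g, an antibacterial lectin of enterocytes, was highest in Vehicle 55 and not in Vehicle 23. It stood at 10.6, 34.8 and 43.5 CPM with vehicle and 7.40, 6.56 and 9.70 CPM with PCN (-1.90, SE 0.46, edgeR adjusted p = 0.231). Against Vehicle 55 alone, a single control library and the highest for this gene, its log2 fold change was -2.49.

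Pancreatic acinar markers, which mark pancreas carried along with duodenum, had a median of -1.62 over 17 members, and 0.16 against Vehicle 55 alone. Prss2, a trypsinogen, stood at 5.74, 1.85 and 1.15 CPM with vehicle and 0.0676 to 0.721 CPM with PCN. The list's summed level was 636 to 854 CPM with vehicle and 646 to 931 CPM with PCN, nearly all of it Zg16 (686 and 763 CPM on average), which goblet cells also make. The 5 members at 0 in all PCN libraries had 0 to 3 counts in each vehicle library and did not pass the filter. None of the 17 was called by edgeR, 7 were lower at an unadjusted p under 0.05, and DESeq2 called 1 lower.

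Fibroblast markers kept nearly the same median under each choice of controls, -0.56 with all vehicle libraries, -0.67 against Vehicle 55 alone and -0.63 against untreated HFD. Col1a1 and Col1a2, the chains of type I collagen, stood at 61.6, 35.5 and 22.4 and at 87.1, 71.4 and 40.1 CPM with vehicle, and at 15.7, 7.10 and 15.3 and 29.9, 22.0 and 32.9 CPM with PCN. Both lay entirely below (log2 fold changes -1.66 and -1.23, edgeR adjusted p = 0.231 for each). Of 12 members, 11 were negative and 6 entirely below, while Fbln1 lay entirely above (0.61). None was called by edgeR, 7 were lower and 1 higher at an unadjusted p under 0.05, and DESeq2 called 2 lower. Against untreated HFD Col1a1 had -1.84 (edgeR adjusted p = 0.0488).

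T and NK cell markers were all positive, with a median of 1.12 over 18 members that was 0.27 against Vehicle 55 alone and 0.31 against untreated HFD. Cd8a stood at 1.64, 2.52 and 7.10 CPM with vehicle and 8.21, 11.0 and 6.74 CPM with PCN, and Gzmb, a granzyme, at 2.80, 5.44 and 8.82 and at 16.5, 12 and 7.20 CPM. Vehicle 23 was the lowest library for each, and PCN 27 lay under Vehicle 55. Summed, the list took 19.4 to 105 CPM with vehicle and 94.2 to 134 CPM with PCN. Of the 18, 4 lay entirely above, among them Tcrg-C1 (log2 fold change 2.33, edgeR adjusted p = 0.231). None of the 18 was called by edgeR, 5 were higher at an unadjusted p under 0.05, and DESeq2 called 1 higher, Tcrg-C1.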

How the data were processed

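RNA of 6 duodenum libraries, 3 HFD PCN and 3 HFD Vehicle, was analysed from raw read counts per gene that the authors deposited in 1 table of 28731 genes. The tools HISAT2, HTSeq and DESeq2 and the build GRCm38 (mm10) are named, with no version, per the submitters' processing notes. For the annotation release, strand setting and read filters nothing is given in the sources used here. The authors' own fold changes and p-values were not used. Coordinates are those of the deposited table, equal to GENCODE M21 for 27497 genes.

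Counts were fitted with edgeR 4.0.16 in R 4.3.3 (filterByExpr, TMM, robust quasi-likelihood F-test), over 16110 genes, with a Benjamini-Hochberg adjusted p under 0.05 as a call. CPM of single libraries are TMM-scaled except where the library total is named. The standard error (SE) was approximated from the log2 fold change and F. Library totals of 4676718 to 20684369 set the precision of low counts. DESeq2 1.42.0 and limma 3.58.1 were alternatives. Scripts were tested on simulated data. Replicate libraries differed by more than sampling noise, with 36.6 to 202 as chi-square over its degrees of freedom. Named genes were the called genes without overlap at a mean count of 20 or more, up to 4 members with the smallest p of each drug or lipid list and up to 2 of each other list, a fixed set, and the 6 highest and 6 lowest outside the lists (mean of at least 50 counts, unadjusted p under 0.01, no overlap). Predicted genes, numbered clones, pseudogenes and segments of antigen receptors were left out of the called and outside genes. Some genes beyond that rule are given as further members of their lists. The members and the 47 lists were chosen with earlier results of these data known.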

Additional observations from a re-analysis of the deposited data

How the results depend on the processing

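The reported analysis called 8 genes higher and 2 lower. In the alternatives the counts higher and lower were 3 and 1 on total counts without TMM, 232 and 611 without the filter on low counts, 107 and 232 with DESeq2, 3191 and 3367 with limma-voom quality weights (weights of 4.602 for Vehicle 50, 0.282 for Vehicle 23 and 0.358 for Vehicle 55), and 5 and 1 without robust estimation. Without genes of mitochondria or resembling ribosomal RNA they were 4 and 0 (892 higher and 1900 lower at an unadjusted p under 0.05). Lars2 and Gm15564 were left out of that fit and could not be called in it. In a fit of all 12 libraries the counts were 24 and 10, and against untreated HFD 39 and 13. With Vehicle 55 as the single control 0 were higher (255 at an unadjusted p under 0.05) and 2 lower. Leaving out 1 library at a time gave 0 to 1581 higher and 0 to 2116 lower, while genes entirely above numbered 1895 to 4441 and entirely below 1883 to 4763. With Vehicle 55 as the single control they numbered 4184 and 4361; fewer libraries make separation easier. Other size factors (RLE) left all 10 calls in place. These log2 fold changes reversed against Vehicle 55 alone: Osgin1 (0.109), Hmox1 (1.25), Cpt1b (0.316), Hspa4l (0.126), Ctss (-0.0267), Spdef (0.271), Nos1 (0.112), Uchl1 (0.109), Igkc (-0.260), Pou2af1 (-0.625), Cps1 (-0.0359), Plin4 (0.0713), Cidec (-0.185), Fabp1 (-0.0371), Cd36 (-0.0541), Hsp90aa1 (0.491). With untreated HFD as controls these did: Abcc3 (-0.0400), Srebf1 (0.131), Scarb1 (-0.162), Hspa4l (0.0537), Gbp7 (-0.134), Hpgds (-0.00554), Sox9 (0.486), Dmbt1 (0.0646), Pou2af1 (-0.0274), Cidec (-0.246), Nr1i2 (-0.0198), Nr1i3 (-0.0843), Hsp90aa1 (0.530). Dmbt1 also reversed with quality weights (0.241). Leaving out 1 library at a time took Dmbt1 from -0.425 to 0.00946 (positive without Vehicle 55), Hbb-bs from -1.89 to 0.663 (positive without Vehicle 55) and Pou2af1 from -0.0778 to 1.30 (negative without Vehicle 23). The cause was not tested. No paired analysis was possible because the groups share no replicate numbers.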

Other observations

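Smooth muscle markers were all negative after PCN, with a median log2 fold change of -0.59 over 12 members, and 2 lay entirely below. None of the 12 was called by edgeR or DESeq2, and 7 were lower and none higher at an unadjusted p under 0.05. Smtn, smoothelin, stood at 56.7, 41.2 and 31.1 CPM with vehicle and 23.5, 27.5 and 22.5 CPM with PCN (-0.82, edgeR adjusted p = 0.231). The median against Vehicle 55 alone was -0.04. Nuclear genes of oxidative phosphorylation (median 0.12 over 34 members), cell cycle genes (0.19 over 32) and interferon response genes (0.04 over 27) lay near the median of all genes, with none called by edgeR or DESeq2. At an unadjusted p under 0.05, 1, 1 and 0 of them were higher and 0, 0 and 1 lower. B and plasma cell markers had a median of 0.11 over 12 members. Igkc, the kappa light chain constant region, stood at 251, 154 and 1082 CPM with vehicle and 1351, 767 and 629 CPM with PCN, so that the spread within groups was wide.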
